A study of Mus musculus with 6 samples.

Results

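Cones are the photoreceptors of daylight and colour vision, and the genes described here encode the proteins that turn a photon absorbed in a cone into a change of membrane current. They were chosen by name (Opn1sw, Opn1mw, Arr3, Gnat2, Gngt2, Gnb3, Pde6c, Pde6h, Cnga3 and Cngb3), and 9 of the 10 had rows among the 17027 gene symbols of the deposited table. Cnga3, the A subunit of the cone cation channel, is not analysed here. The samples were retinal ganglion cells (RGCs) of wild-type mice, whose strain is labelled C57/6NCrl. The groups were embryonic day 18 (E18), postnatal day 5 (P5) and 8-week-old Adult mice, with 2 libraries each and 6 in all, and no treatment is labelled. Cells were taken by immunopanning on Thy1, a surface antigen of RGCs, after panning steps that removed macrophages and, per the sample labels, amacrine cells; no step against photoreceptors is named. The labels do not say if both libraries of an age stem from different animals or pools, so the p-values below cover library-to-library spread alone, which may be technical.

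In a cone, light converts the opsin into an activator of the G protein transducin. The alpha subunit of transducin releases the inhibitory subunit of phosphodiesterase 6, which then hydrolyses cGMP. The drop in cGMP closes cyclic nucleotide-gated channels in the outer segment, and arrestin ends the signal at the opsin. Rods use the same cascade with their own set of paralogs. RGCs are output neurons that use neither cascade for image vision, and some of these genes are also used by cells other than cones.

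Promoter sequences of 5 of the members are shown here because the genes moved together between ages, and they let a reader compare the start sites directly. They come from RefSeq on GRCm38.p6, hold 250 bases before and 50 after the annotated start, and read 5′ to 3′. The windows of Opn1sw, Gnat2 and Pde6h lie inside the gene spans given below, which come from GENCODE and begin further upstream. Capitals mark TAATC on either strand, the short core of sites bound by photoreceptor homeodomain factors such as Crx and Otx2, a motif chosen after the sequences were seen.
Opn1sw, chr6:29380464-29380763, minus strand: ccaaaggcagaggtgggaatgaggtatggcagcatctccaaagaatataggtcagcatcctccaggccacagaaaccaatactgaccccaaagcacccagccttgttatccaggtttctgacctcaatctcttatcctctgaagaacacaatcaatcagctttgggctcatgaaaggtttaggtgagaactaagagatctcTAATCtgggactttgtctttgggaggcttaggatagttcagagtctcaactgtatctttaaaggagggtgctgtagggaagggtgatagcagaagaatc
Opn1mw, chrX:74127216-74127515, plus strand: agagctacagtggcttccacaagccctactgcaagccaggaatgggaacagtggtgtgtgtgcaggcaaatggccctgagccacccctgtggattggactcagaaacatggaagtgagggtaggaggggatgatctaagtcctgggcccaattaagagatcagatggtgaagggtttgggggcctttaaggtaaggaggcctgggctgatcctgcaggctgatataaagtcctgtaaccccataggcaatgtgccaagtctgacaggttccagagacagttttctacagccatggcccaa
Arr3, chrX:100605247-100605546, plus strand: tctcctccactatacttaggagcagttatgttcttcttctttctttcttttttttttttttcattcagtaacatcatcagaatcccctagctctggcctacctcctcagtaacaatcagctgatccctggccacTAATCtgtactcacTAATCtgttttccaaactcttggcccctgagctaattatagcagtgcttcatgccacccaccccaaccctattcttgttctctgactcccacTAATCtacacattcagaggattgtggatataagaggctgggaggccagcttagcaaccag
Gnat2, chr3:108092816-108093115, plus strand: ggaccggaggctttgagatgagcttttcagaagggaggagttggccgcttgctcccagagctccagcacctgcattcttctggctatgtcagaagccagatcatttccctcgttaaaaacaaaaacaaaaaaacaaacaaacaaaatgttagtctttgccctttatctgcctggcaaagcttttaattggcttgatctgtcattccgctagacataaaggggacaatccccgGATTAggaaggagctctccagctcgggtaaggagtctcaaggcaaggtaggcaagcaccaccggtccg
Pde6h, chr6:136954273-136954572, plus strand: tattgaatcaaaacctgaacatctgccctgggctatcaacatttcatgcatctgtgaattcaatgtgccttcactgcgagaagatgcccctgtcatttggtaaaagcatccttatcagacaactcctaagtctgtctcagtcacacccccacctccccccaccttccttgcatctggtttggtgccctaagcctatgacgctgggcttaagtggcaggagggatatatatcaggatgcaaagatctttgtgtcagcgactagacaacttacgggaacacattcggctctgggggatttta

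The Arr3 window held TAATC 3 times, at bases -116, -102 and -10 from the start. The Opn1sw window held it once at -49, and the Gnat2 window held it once at -18 on the opposite strand. The Opn1mw and Pde6h windows held none. Of all 32851 promoter windows of this length, 22.0% held TAATC. The longer form TAATCC, which holds TAATC, was present in 7.06% of windows and in 1 of 7 windows of the 6 members with an entry (that of Gnat2, overlapping its TAATC; 2 of the 7 belong to Cnga3), against 4 of 6 windows of rod counterparts. The nuclear receptor half-site AGGTCA was present in 16.3% of all windows and, among member windows, in that of Opn1sw, at -202 and, on the opposite strand, at -132. E-boxes (CANNTG) were present in 72.3% of all windows and in all 7 member windows, 2 of them those of Cnga3. Both strands were searched, and a match describes letters in a window only.

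At P5 the listed cone genes other than Cngb3 were under 1 FPKM in both libraries, and in Adult all 9 were at 1 FPKM or more in both. At E18, 6 of the 9 were under 1 FPKM in both libraries, while Gngt2, Gnb3 and Opn1sw exceeded it in replicate 1. Levels are FPKM, fragments scaled to transcript length and to mapped fragments, summed over the isoforms of a gene; they are set per length, so levels of different genes can be compared. The summed level of the 9 genes was 8.15 and 2.05 FPKM at E18, 2.58 and 2.65 at P5 and then 121 and 109 in Adult. Of the 8 members other than Cngb3, none exceeded 0.559 FPKM in a P5 library and none was below 2.86 FPKM in an Adult library. All 8 had every Adult library above every younger one. The share of all tested genes with this pattern was not computed. To be listed, an isoform had to reach 1 FPKM in some library, which for most members happened in Adult alone. These levels therefore describe the listed members and support no direction. In bulk RNA, fewer cells of a type and less RNA per cell cannot be told apart.

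**Figure D1:**
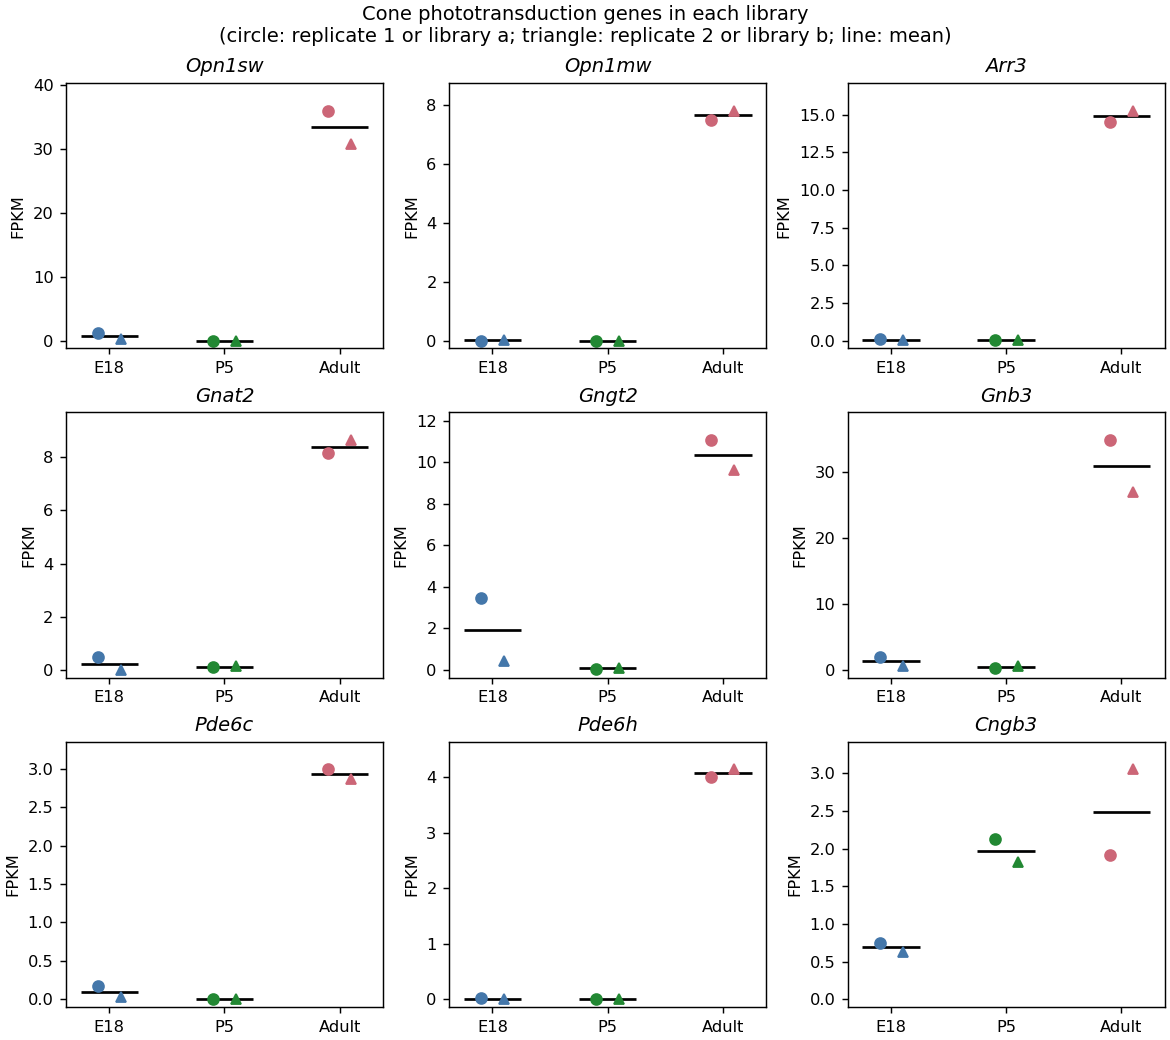
FPKM of each of the 9 listed cone phototransduction genes in every library, with age on the x axis, a separate linear y axis per gene, and a line at the mean of the 2 libraries. Adult libraries stand apart from E18 and P5 in 8 panels, while Cngb3 already reached 1.82 and 2.12 FPKM at P5; E18 replicate 1 (circle) is the higher E18 library for Gngt2 at 3.48 FPKM.

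Opn1sw encodes the short-wavelength (S) opsin and Opn1mw the middle-wavelength (M) opsin of mouse cones, which often hold both. Opn1sw had 1.18 and 0.277 FPKM at E18, 0.00777 and 0 at P5 (libraries a and b) and then 36.0 and 30.8 in Adult replicates 1 and 2. It rose in Adult relative to P5, with a log2 change of 5.10 (SE 0.27, limma adjusted p = 5.74e-05), and relative to E18, with 4.36 (limma adjusted p = 6.34e-05). Changes are on the scale of log2(FPKM + 1), which understates those of low genes. With a pseudocount of 0.1 FPKM in place of 1, the changes in Adult relative to P5 were 8.33 for Opn1sw, 6.28 for Opn1mw, 6.90 for Arr3, 5.25 for Gnat2, 5.89 for Gngt2, 5.98 for Gnb3, 4.92 for Pde6c, 5.38 for Pde6h and 0.29 for Cngb3, so their size depends on this choice. Opn1mw was listed at 0 in E18 replicate 1 and in both P5 libraries and had 0.0122 FPKM in E18 replicate 2, while the Adult libraries had 7.49 and 7.80 FPKM. Its log2 change was 3.11 in Adult relative to P5 (SE 0.18, limma adjusted p = 6.90e-05) and 3.10 relative to E18 (limma adjusted p = 4.93e-05). Every isoform of both opsins was under 1 FPKM in each E18 and P5 library, so both were listed through Adult alone. The rises of the opsins therefore support no direction. Within each Adult library the S opsin stood above the M opsin, by a ratio of 4.81 in replicate 1 and 3.95 in replicate 2.

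In GRCm38, Opn1sw spans bases 29376671 to 29388468 of chromosome 6 (minus strand), and Opn1mw spans bases 74127464 to 74150760 of the X chromosome (plus strand). Exons of Calu, on the opposite strand, share 397 bases with those of Opn1sw, or 15.5% of the exon bases of Opn1sw. The sources used here do not say that the counting kept strand, so reads of that stretch could fall to either gene. Calu had 31.3 and 30.8 FPKM in Adult, against 76.1 and 67.0 FPKM at P5, where Opn1sw was listed at 0.00777 and 0 FPKM.

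Arr3, the cone arrestin (chromosome X, 100605497 to 100618493, plus strand), had 0.0831 and 0.0472 FPKM at E18, 0.0271 and 0.0245 at P5 and then 14.5 and 15.3 in Adult. The Adult libraries differed by less than 1 FPKM and lay far above all 4 younger libraries. The log2 change was 3.95 in Adult relative to P5 (SE 0.17, limma adjusted p = 3.05e-05) and 3.90 relative to E18 (limma adjusted p = 2.47e-05). Arr3 was listed through Adult alone, so its rise was built into the selection and supports no direction. Relative to the summed opsins, Arr3 stood at a ratio of 0.334 in Adult replicate 1 and 0.395 in replicate 2.

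The 3 subunits of cone transducin were each higher in Adult than at both younger ages. Gnat2, the alpha subunit that binds GTP (chromosome 3, 108092789 to 108101432, plus strand), had 0.477 and 0.00779 FPKM at E18, 0.116 and 0.131 at P5 and then 8.15 and 8.65 in Adult. Gnat2 rose by a log2 change of 3.06 in Adult relative to P5 (SE 0.23, limma adjusted p = 0.000148). Gnb3, the beta subunit, which ON bipolar cells also use (chromosome 6, 124834240 to 124840275, minus strand), had 1.98 and 0.639 FPKM at E18, 0.258 and 0.559 at P5 and then 34.8 and 26.9 in Adult. Gnb3 rose by a log2 change of 4.50 in Adult relative to P5 (SE 0.31, limma adjusted p = 0.000116). Every isoform of Gnat2 and Gnb3 was under 1 FPKM in each E18 and P5 library, so both were listed through Adult alone. The rises of these genes therefore support no direction. Gnb3 stood above Gnat2 by a ratio of 4.27 in Adult replicate 1 and 3.11 in replicate 2.

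Gngt2, the gamma subunit (chromosome 11, 95837216 to 95845734, plus strand), had 3.48 and 0.413 FPKM at E18, 0.0422 and 0.118 at P5 and then 11.1 and 9.64 in Adult. Its log2 change was 3.39 in Adult relative to P5 (SE 0.50, limma adjusted p = 0.00172) and 2.17 relative to E18 (SE 0.50, limma adjusted p = 0.0100). The rise relative to E18 was lost without Adult replicate 1 (2.08, limma adjusted p = 0.0701) and without Adult replicate 2 (2.26, limma adjusted p = 0.0562). Exons of Abi3 on the opposite strand share 234 bases with Gngt2, or 12.5% of its exon bases, and Abi3 is not analysed here. Gngt2 is also expressed by some leukocytes; of the 10 microglia and macrophage markers, C1qa alone had a row, with 0.175 and 0.130 FPKM at E18, 0 in both P5 libraries, and 1.25 and 0.326 FPKM in Adult. The part of such cells in the Gngt2 level was not tested.

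Phosphodiesterase 6 is the effector enzyme of the cascade, and both of its listed cone subunits rose at low levels. Pde6c, its catalytic subunit in cones (chromosome 19, 38132781 to 38183958, plus strand), had 0.168 and 0.0244 FPKM at E18, was listed at 0 in both P5 libraries, and had 2.99 and 2.86 FPKM in Adult. Its log2 change was 1.97 in Adult relative to P5 (SE 0.20, limma adjusted p = 0.000384) and 1.84 relative to E18 (limma adjusted p = 0.000449). Pde6h, its inhibitory subunit in cones (chromosome 6, 136923832 to 136968865, plus strand), had 0.0215 and 0 FPKM at E18, 0.000307 and 0.000580 at P5 and then 4.01 and 4.14 in Adult. Pde6h rose by a log2 change of 2.34 in Adult relative to P5 (SE 0.19, limma adjusted p = 0.000176). Both Pde6c and Pde6h were under 1 FPKM in every E18 and P5 library and were listed through Adult alone. Their rises were thus built into the selection and support no direction. The inhibitory subunit stood above the catalytic one by a ratio of 1.34 in Adult replicate 1 and 1.45 in replicate 2.

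Cngb3, the B subunit of the cone cyclic nucleotide-gated channel (chromosome 4, 19280850 to 19510623, plus strand), followed another course. It had 0.746 and 0.634 FPKM at E18, 2.12 and 1.82 at P5 and then 1.91 and 3.05 in Adult. Both P5 libraries lay above both E18 libraries, and the Adult libraries lay on either side of the P5 value of library a. Its log2 change was 0.21 in Adult relative to P5 (95% interval -0.32 to 0.74, limma adjusted p = 0.437) and 1.02 in Adult relative to E18 (SE 0.22, limma adjusted p = 0.00741), where the mean was 3.60 times as high. In P5 relative to E18 the log2 change was 0.81 (95% interval 0.28 to 1.34, limma adjusted p = 0.0665), which missed the threshold.

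The adjusted p moved both ways when 1 library was left out. Omitting E18 replicate 1 gave a limma adjusted p of 0.271 and omitting E18 replicate 2 gave 0.252. Omitting P5 library a gave 0.206 and omitting P5 library b gave 0.117. The call was gained without either Adult library (limma adjusted p = 0.0470 without replicate 1 and 0.0461 without replicate 2) and in a fit to the 4 E18 and P5 libraries (limma adjusted p = 0.0456). Rescaling to TPM, in which each library sums to the same total, gave 1.13 (limma adjusted p = 0.0304) for P5 relative to E18 and -0.35 (limma adjusted p = 0.221) for Adult relative to P5. The exons of Cngb3 share no base with those of another annotated gene. The opsins, Arr3, Pde6c and Pde6h were at or below 0.0271 FPKM in both P5 libraries, where Cngb3 was the highest of the members. Its rod counterpart Cngb1 had 0.123 and 0.0948 FPKM at P5, against 0.0582 and 0.0603 FPKM at E18.

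**Figure D2:**
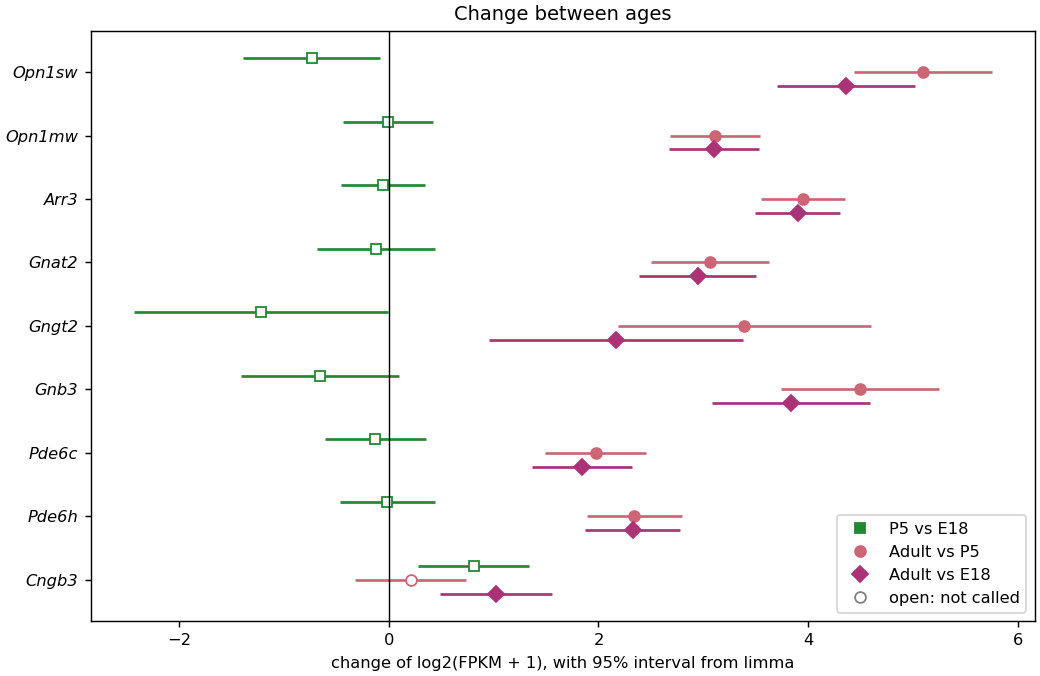
Change of log2(FPKM + 1) with its 95% limma interval for each member (rows) in the 3 comparisons of ages; filled symbols passed an adjusted p under 0.05. The Adult comparisons lie right of 0 for 8 genes, while Cngb3 has changes of 0.81, 0.21 and 1.02 and passed only in Adult against E18.

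Set against all genes, 8 of the 9 members rose in Adult relative to P5, where 26.2% of the 14390 tested genes were called higher, 33.7% lower and 59.8% either way. All 9 rose relative to E18, where 25.3% of tested genes were called higher, 34.4% lower and 59.7% either way. The median log2 change of the members was 3.11 and 2.95 in these comparisons, and that of all tested genes was -0.07 and -0.11. The comparisons share the Adult libraries. A member could enter the table only if 1 of its isoforms reached 1 FPKM in some library, which for most members happened in Adult alone, so these counts describe the listed members and do not support a direction. Between P5 and E18 no member was called by limma, against 10.5% of all tested genes (5.52% higher and 4.95% lower); Cngb3, Opn1sw and Gngt2 had an unadjusted p of 0.00920, 0.0335 and 0.0485. Of these 3, Opn1sw was called lower at P5 with a pseudocount of 0.1 FPKM (log2 change -2.74, limma adjusted p = 0.0329), as was Gngt2 without E18 replicate 2 (-2.05, limma adjusted p = 0.0416). The number of genes called between P5 and E18 was 1507 with all 6 libraries and lower in each fit to 5, also where an Adult library was the one omitted. Leaving out E18 replicate 1 gave 28 and leaving out E18 replicate 2 gave 117. Omitting P5 library a gave 10, and omitting P5 library b gave 579. The fit lacking Adult replicate 1 gave 640 and that lacking Adult replicate 2 gave 642.

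Scaling moved all genes, and the rises of the 8 members other than Cngb3 kept their direction and call under each scaling in which they were tested, while Cngb3 in Adult relative to P5 changed sign. In Adult relative to P5, 3767 genes were called higher and 4843 lower; with TPM the numbers were 1878 and 8967, and with an equal sum over protein-coding genes 5406 and 3336. With TPM the median of all genes moved to -0.71, while Opn1sw had a log2 change of 5.36, Arr3 4.17, Gnb3 4.39, Pde6c 2.18 and Cngb3 -0.35. In P5 relative to E18, 795 genes were called higher and 712 lower, with 1479 and 468 under TPM and 845 and 502 with protein-coding genes. In Adult relative to E18, 3638 genes were called higher and 4950 lower, with 2224 and 8542 under TPM and 5517 and 3309 with protein-coding genes.

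In Adult the order of levels was Opn1sw (33.4 ± 3.69 FPKM), Gnb3 (30.8 ± 5.58), Arr3 (14.9 ± 0.513), Gngt2 (10.4 ± 1.02), Gnat2 (8.40 ± 0.351), Opn1mw (7.65 ± 0.221), Pde6h (4.07 ± 0.0922), Pde6c (2.93 ± 0.0921) and Cngb3 (2.48 ± 0.806; mean ± SD, n = 2 libraries throughout). The libraries of Opn1sw and Gnb3 overlapped, as did those of Pde6c and Cngb3, so these neighbours cannot be ordered. The other neighbours did not overlap. At E18 the order was led by Gngt2, Gnb3, Opn1sw and Cngb3. Neighbours among these overlapped, while Cngb3 did not overlap Gnat2, the next in order. E18 replicate 1 was the higher library for 8 of the 9 members. The share of all genes higher in this library was not computed. This library was also higher for Otx2, a factor of photoreceptors and bipolar cells chosen after its values were seen. Otx2 had 5.67 and 0.503 FPKM in E18 replicates 1 and 2. Also picked after their values were seen, the amacrine markers Gad1 (5.97 and 0.180 FPKM) and Tfap2b (8.74 and 0.277) were higher there. So was the Müller glia marker Slc1a3 (3.29 and 0.102), while the amacrine marker Slc6a9 was not (2.95 and 3.56). Slc1a3 does not stand for its list. The Müller glia and astrocyte markers summed to 251 and 220 FPKM in E18 replicates 1 and 2. Among them, Glul was near equal (125 and 120) and Clu was lower in replicate 1 (14.5 and 18.3). The part of each of these cell types in the E18 levels of the members was not tested.

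The Adult libraries held most cone genes, like most tested genes, at similar levels but rod genes at very unequal ones. Among the cone genes, Cngb3 differed most, with 1.91 and 3.05 FPKM. For the 9 members, the ratio of Adult replicate 1 over Adult replicate 2 lay between 0.626 (Cngb3) and 1.29 (Gnb3), with a median of 0.969. For the 10 rod counterparts it lay between 2.57 (Gnb1, a beta subunit used by most cells) and 9.12, with a median of 8.35. Over the 13096 tested genes with at least 1 FPKM in both Adult libraries the median ratio was 0.999, with 0.855% of genes at 5 or above and 83.0% inside the range of the cone members. Rescaling to TPM multiplies every such ratio by 1.07. With 1 library on each side, no test of this difference is possible.

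**Figure D3:**
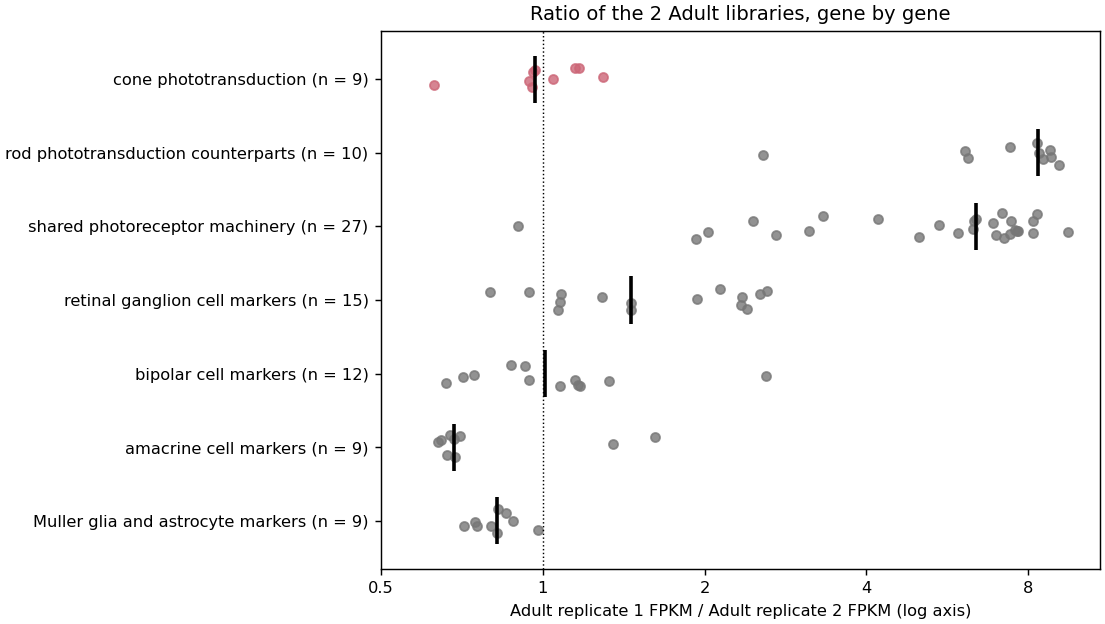
FPKM in Adult replicate 1 divided by FPKM in Adult replicate 2 (log axis) for each gene of 7 lists, with a bar at the median; genes had at least 1 FPKM in both libraries. Cone genes lie around 1 (median 0.969), rod counterparts and most shared photoreceptor genes between 2 and 10 (medians 8.35 and 6.39), and bipolar markers around 1 (median 1.01).

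The contrast between the Adult libraries was also seen in ratios of rod genes to their cone paralogs. Gnat1, the rod transducin alpha subunit, had 710 FPKM in Adult replicate 1 and 84.5 FPKM in replicate 2, a ratio to Gnat2 of 87.1 and 9.77. Sag, the rod arrestin, stood at a ratio to Arr3 of 45.4 and 4.92. The catalytic subunits Pde6a and Pde6b together had 378 and 42.4 FPKM, a ratio to Pde6c of 126 and 14.8, and the inhibitory Pde6g had 254 and 34.3 FPKM, a ratio to Pde6h of 63.3 and 8.28. Gngt1 exceeded Gngt2 by 13.4 and 2.53, and Cngb1 exceeded Cngb3 by 24.97 and 2.53. Across these 6 comparisons, the rod-to-cone ratio was between 5.31 and 9.89 times as large in replicate 1 as in replicate 2. Gnb1, the broadly used beta subunit, exceeded Gnb3 by a ratio that was 1.98 times as large in replicate 1, where it reached 11.997, as in replicate 2, where it was 6.04. Rod and cone transcripts were thus not in 1 fixed proportion in the Adult libraries.

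Of the genes of phototransduction and outer segments that serve rods or both photoreceptors, all 27 listed ones rose in Adult relative to P5 (26.2% of all tested genes were called higher). Their median log2 change was 3.80. Most of these genes were under 1 FPKM in every E18 and P5 library and were listed through Adult alone. A rise was thus built into their selection, and this count supports no direction. By the naming rule, Prph2, a structural protein of outer segment discs, had 454 and 61.2 FPKM in Adult, against 0.114 and 0.0568 FPKM at P5. Slc17a7, the vesicular glutamate transporter of photoreceptors and bipolar cells, had 106 and 33.9 FPKM in Adult, against 0.313 and 0.276 FPKM at P5. Cacna2d4, a calcium channel subunit of photoreceptor terminals, had 45.2 and 16.7 FPKM in Adult, against 0.139 and 0.158 FPKM at P5. Unc119, a lipid-binding carrier of transducin alpha, had 313 and 94.3 FPKM in Adult, against 42.1 and 44.9 FPKM at P5.

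In 25 of these 27 genes Adult replicate 1 was more than 2 times as high as replicate 2, with a median ratio of 6.39. The others were Gnb5 (ratio 1.92) and Slc24a2 (ratio 0.897), named after their values were seen. Slc24a2, a sodium, calcium and potassium exchanger known from cones and also found in RGCs, had 1.84 and 1.55 FPKM at E18, 8.20 and 6.48 at P5 and then 13.3 and 14.8 in Adult. It rose in P5 relative to E18 (log2 change 1.62, limma adjusted p = 0.00907) and in Adult relative to P5 (0.86, limma adjusted p = 0.00466).

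Transcription factors of photoreceptor development moved in both directions. Of 15 tested, 9 rose and 5 fell in Adult relative to P5 (26.2% of all tested genes were called higher and 33.7% lower). Some of those that rose were under 1 FPKM in every E18 and P5 library and were listed through Adult alone. Their rises were built into the selection, so the count of rises supports no direction. Rxrg, a retinoid X receptor of developing cones that RGCs also express, had 3.73 and 3.98 FPKM in Adult, against 20.7 and 22.1 FPKM at P5 (log2 change -2.21). Isl2, a factor of RGCs, had 4.52 and 1.60 FPKM in Adult, against 72.0 and 94.0 FPKM at P5 (-4.46). Rorb had 51.3 and 43.7 FPKM in Adult, against 20.7 and 22.3 FPKM at P5. Meis2 had 79.5 and 111 FPKM in Adult, against 37.8 and 37.1 FPKM at P5 (1.30), and Mef2d had a log2 change of 2.24.

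Thrb, the thyroid hormone receptor beta that directs M opsin expression in mouse cones, and Crx, a factor of rods and cones, were named after their values were seen. Thrb had 0.554 and 0.179 FPKM at E18, 3.15 and 1.56 at P5 and then 14.0 and 12.8 in Adult, an Adult ratio of 1.09. It rose in Adult relative to P5 (log2 change 2.15, limma adjusted p = 0.000932) and in P5 relative to E18 (1.27, limma adjusted p = 0.0379). Crx had 128 and 24.0 FPKM in Adult, a ratio of 5.32, against 0 and 0.0685 FPKM at P5.

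Markers of several cell types other than RGCs moved together with the cone genes. The labelled cell type was checked by RGC markers, of which 14 of 15 fell in Adult relative to P5, where 33.7% of all tested genes were called lower; none was at 0. The summed level of the list (in FPKM) was 4183 and 4884 for E18, then 4588 and 4199 for P5, then 553 and 369 for Adult. Gap43, a growth cone protein, had 33.6 and 35.7 FPKM in Adult, against 1108 and 1026 FPKM at P5. Pou4f2, a defining factor of RGCs, had 4.10 and 2.12 FPKM in Adult, against 91.0 and 105 FPKM at P5. The other named RGC markers (Nefl, Isl1 and Ebf1) had log2 changes of -3.68, -3.68 and -2.79.

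All 11 rod markers rose in Adult relative to P5, with sums of 5484 and 659 FPKM in Adult, against 2.36 and 2.46 FPKM at P5. Of all tested genes, 26.2% were called higher and 33.7% lower in this comparison. Every rod marker was under 1 FPKM in each E18 and P5 library, so it was listed through Adult alone and its rise was built in. The same holds for some bipolar, amacrine and Müller glia markers, so these counts of rises support no direction. Of 12 tested bipolar markers 11 rose and 1 fell (Isl1, which RGCs share), with sums of 199 and 182 FPKM in Adult, against 138 and 152 FPKM at P5, most of the P5 level from Isl1. Pcp2, Cabp5, Scgn and Prkca had log2 changes of 4.04, 4.36, 3.26 and 1.66. Of 10 tested amacrine markers 8 rose and 1 fell, with sums of 1317.5 and 1607 FPKM in Adult, against 997 and 855 FPKM at P5. Slc6a9, Gad2, Tfap2a and Slc32a1 rose, and Calb2, which RGCs also express, fell to 253 and 156 FPKM in Adult, against 815 and 678 FPKM at P5.

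Of 9 Müller glia and astrocyte markers 8 rose in Adult relative to P5, where 26.2% of all tested genes were called higher and 33.7% lower. Their sums were 1526 and 1833 FPKM in Adult, against 209 and 215 FPKM at P5. Among them, Glul, Aqp4, Rlbp1, Clu and Dkk3 had log2 changes of 2.73, 4.48, 5.37, 2.66 and 3.07. Of 5 horizontal cell markers 3 rose and 2 fell. Prox1 and Tfap2a had log2 changes of 4.20 and 3.62, Calb1 rose as well, and Onecut1, which RGCs also express, had 0.719 and 0.327 FPKM in Adult, against 2.80 and 2.62 FPKM at P5. Adult replicate 1 over replicate 2 had a median ratio of 1.46 for RGC markers, 1.01 for bipolar markers, 0.683 for amacrine markers and 0.820 for Müller glia markers. The part of each of these cell types in the levels of the cone genes was not tested.

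The genes whose levels over the 6 libraries were most like the summed cone level, among 6755 candidates with an Adult mean of at least 10 FPKM, were Car2, Frem1, Mfge8, Neurod4, Slc32a1 and Gad1. Their Pearson r lay between 0.9966 (Gad1) and 0.9999 (Car2) on the scale of log2(FPKM + 1), over 6 libraries that differ mainly by age. Frem1 had 1.42 and 0.144 FPKM at E18, 0.279 and 0.332 at P5 and then 17.5 and 16.6 in Adult. Neurod4, a basic helix-loop-helix factor, had 1.46 and 0.110 FPKM at E18, 0.0688 and 0.0797 at P5 and then 49.2 and 38.3 in Adult. Slc32a1, the vesicular transporter of GABA and glycine, had 65.4 and 93.4 FPKM in Adult, and Gad1, a GABA-synthesising enzyme, had 298 and 450 FPKM, so these were higher in Adult replicate 2. The 6 genes were picked on these same values, so their likeness to the cone genes is no separate result.

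The 9 genes were listed with 26 isoforms, of which 15 reached a mean of 1 FPKM and were tested. All but 1 of the tested isoforms rose in Adult relative to P5, where 19.2% of all 34941 tested isoforms were called higher and 24.1% lower; the exception was the single isoform of Cngb3. Most tested isoforms reached the mean of 1 FPKM through the Adult libraries alone, so a rise was built into their selection and these counts support no direction. All 15 rose relative to E18, where 17.9% were called higher and 26.8% lower. None was called between P5 and E18, where 0.804% were called higher and 0.824% lower. Of the 26, 2 were unannotated splice variants, in Arr3 and Opn1sw. Protein-coding forms held all of the Adult FPKM of Gngt2, Pde6c, Pde6h and Cngb3, 92.3% and 85.6% of that of Opn1mw and 72.9% and 62.7% of that of Gnat2.

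By FPKM, Opn1sw was spread evenly over 3 annotated forms of 2410, 1426 and 743 bases. They had 11.8, 11.6 and 11.9 FPKM in Adult replicate 1 and 9.13, 10.6 and 9.84 FPKM in replicate 2. By FPKM times length they were uneven. In that order they held 51.3%, 29.7% and 15.9% of the estimated fragments in replicate 1 and 46.4%, 31.9% and 15.4% in replicate 2. The shortest is annotated as a processed transcript without a coding frame. In Arr3 and Gnb3, forms annotated as retaining an intron were prominent. The Arr3 form of 1692 bases had 6.37 and 6.41 FPKM in Adult, or 43.9% and 42.0% of the gene, and the coding form of 1359 bases had 4.87 and 5.52 FPKM. The Gnb3 form of 1779 bases, also with a retained intron, had 12.5 and 8.06 FPKM, or 36.0% and 30.0% of the gene, and its coding form of 1846 bases had 16.6 and 15.4 FPKM. The coding form of Gnb3 thus differed less between the Adult libraries than the form with the retained intron. How Cufflinks divided reads among overlapping forms adds error that these files do not state.

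**Figure D4:**
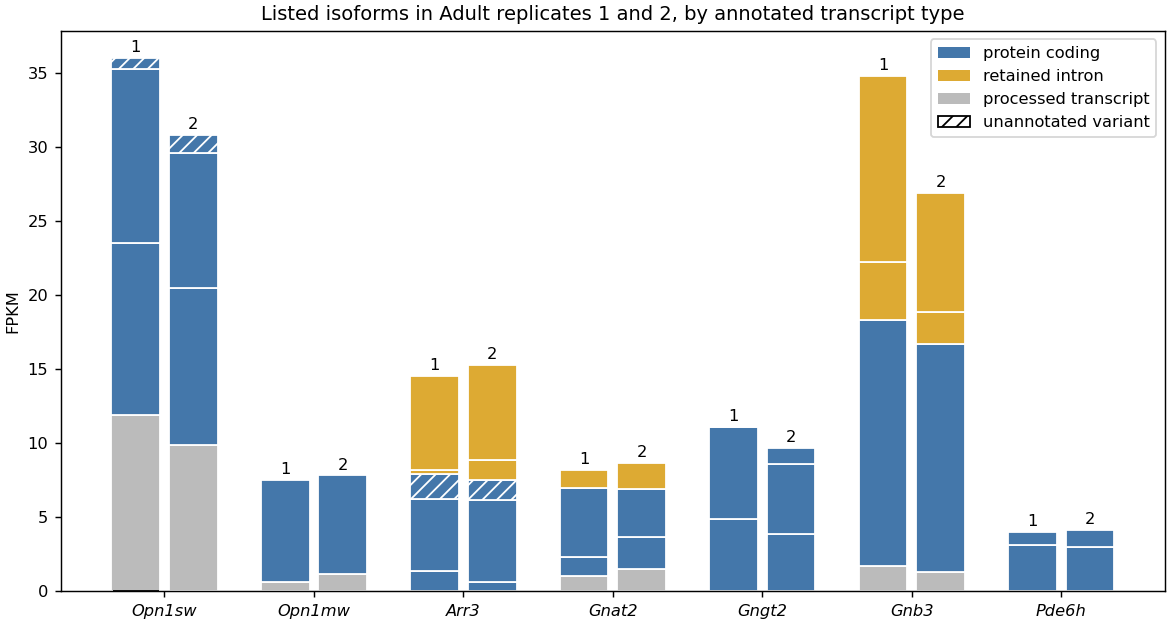
FPKM of each listed isoform (stacked segments) in Adult replicates 1 and 2 for the 7 members with more than 1 isoform, coloured by the transcript type of the annotation, with hatching for unannotated variants. Retained-intron forms make up 43.9% and 42.0% of Arr3 in their largest segment and 36.0% and 30.0% of Gnb3, while Gngt2 and Pde6h hold coding forms only.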

How the data were processed

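The deposited table holds isoform FPKM, made by the authors with HISAT2, Cufflinks and Cuffdiff on mm10, per the submitters' processing notes; no versions are given in the sources used here. It lists 50829 isoforms, each with at least 1 FPKM in 1 library, and 0.0001 stands in place of 0. Isoform lengths (in bases, an other measure in the deposited table) were used for shares of fragments. Columns of the P5 libraries share 1 header, so they are called a and b. A further 9 columns of per-sample values were not used. FPKM carry no counts, so depth and counting error are unknown.

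Isoform FPKM were summed per symbol, and the 14390 genes with a mean of at least 1 FPKM entered a limma fit (version 3.58.1, R 4.3.3) on the log2(FPKM + 1) scale (age as factor, all 6 libraries, trend, no block, 3 residual degrees of freedom). Tests were two-sided, with Benjamini-Hochberg adjustment over all genes of a comparison and a threshold of 0.05. The fit was tested on simulated data. Positions come from GENCODE M21 (GRCm38), which matches the build of the files. Named genes are all members and, per list, the 4 with the smallest p in Adult against P5 and the 2 with the highest level; the rod markers among them are given beside their cone paralogs, and some genes that the rule names are not reported here. The members, lists and tests were chosen with earlier results of these data known. Alternatives covered the pseudocount, filters, scaling, isoforms, variance trend, single libraries and a replicate block.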

Additional observations from a re-analysis of the deposited data

How the results depend on the processing

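The 8 rises of members in Adult relative to P5 and the 9 relative to E18 kept their direction under every alternative in which the gene could be tested. Of 423 member values under the alternatives, 406 kept direction and side of the threshold, 8 passed it newly, 2 no longer passed and 7 changed sign, none of these 7 called. The 2 losses were Gngt2 in Adult against E18 without either Adult library. With a mean of at least 3 FPKM, 4 members were called in Adult against P5 and 4 against E18, because the others were not tested. In P5 against E18, 0 members were called with all libraries, 2 with a pseudocount of 0.1 FPKM, 1 with TPM, 1 with an equal sum without genes under 300 bases and 1 with only the 4 libraries of these ages, and between 0 and 1 with 1 library left out. In that comparison 1507 genes were called, 696 with the 4 libraries and between 10 and 642 with 1 library left out.

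Sign changes concerned Cngb3 in Adult against P5 (-0.35 with TPM, -0.057 with quantile normalization, -0.12 with an equal sum without genes under 300 bases and between -0.028 and 0.45 with 1 Adult library left out), Pde6h in P5 against E18 (0.015 with quantile normalization and between -0.030 and 0.00064 with 1 E18 library left out) and Gnat2 in P5 against E18 (between -0.40 and 0.16 with 1 E18 library left out). Their causes were not tested. With a replicate block on the E18 and Adult libraries, 8057 genes and 9 members were called, against 8588 and 9; the numbers mark no shared animal or batch, and deviations of same-numbered libraries correlated at 0.018. The P5 columns carry no number and were not paired. FPKM without counts set no floor for levels near 0.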

Other observations

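Pde6h was listed with 2 coding isoforms whose weights differed between scales. The form of 392 bases had 3.09 and 2.99 FPKM in Adult and the form of 5940 bases 0.923 and 1.14 FPKM. By FPKM times length, the long form held 81.9% and 85.3% of the estimated fragments of the gene, against 23.0% and 27.6% of its FPKM. Exons of Arhgdib on the opposite strand share 136 bases with Pde6h, and Arhgdib is not analysed here.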
